A study of Mus musculus with 4 samples.

Results

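Sterol and fatty acid synthesis genes encode the enzymes that build cholesterol and fatty acids, together with the proteins that control them. The set was a list of 28 genes chosen by name. Of these, 27 had at least 1 probe set under their symbol (63 probe sets of 45037 tested), out of 18193 genes named on the array. The expression of Acat2, an acetyl-CoA acetyltransferase, was not analysed here. Gene expression was compared between subclones of 36-65, a mouse hybridoma, which is a fusion of an antibody-forming cell with a myeloma cell. H23 and H27 switched isotype spontaneously and often in culture (high switching), and L25 and L27 switched rarely (low switching). All 4 subclones came from that hybridoma and grew in the same medium with 10% fetal calf serum. Each subclone is a clone, measured once from total RNA on 1 array, and 2 clones stand for each class. Nothing in the labels says that the clones of a class arose independently, so the p-values reflect the spread among these 4 clones alone.

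Cells make cholesterol from acetyl-CoA through mevalonate, isoprenoid diphosphates, squalene and lanosterol, and they draw on the same acetyl-CoA to make fatty acids. The transcription factors encoded by Srebf1 and Srebf2 are held in the endoplasmic reticulum by Scap and the Insig proteins while sterol is plentiful. When sterol is scarce, Scap carries them to the Golgi, where they are cut free and then raise transcription of the genes of both pathways. Antibody-secreting cells hold an extensive endoplasmic reticulum made of such lipids, and serum brings lipoprotein cholesterol to cultured cells.

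The RefSeq promoters of Msmo1 and Srebf2 are shown because these genes passed the test between the classes. That of Hmgcs1, the synthase at the entry to the mevalonate pathway, is shown because it holds the full sterol element searched for. Each runs 5′ to 3′ on the strand of its gene in build GRCm38.p6, with 250 bases before the transcription start and 50 after it. They lie at chr8:64733529-64733828 (minus strand) for Msmo1, at chr15:82147019-82147318 (plus strand) for Srebf2 and at chr13:119690101-119690400 (plus strand) for Hmgcs1. Capitals mark TCACNCCAC, letters of the sterol regulatory element, or TCACNCCA, the same without its last base, added after the Srebf2 promoter was read. They also mark CCAAT, the letters bound by the factor NF-Y. Matches on either strand are marked (CCAAT reads ATTGG on the other).
Msmo1: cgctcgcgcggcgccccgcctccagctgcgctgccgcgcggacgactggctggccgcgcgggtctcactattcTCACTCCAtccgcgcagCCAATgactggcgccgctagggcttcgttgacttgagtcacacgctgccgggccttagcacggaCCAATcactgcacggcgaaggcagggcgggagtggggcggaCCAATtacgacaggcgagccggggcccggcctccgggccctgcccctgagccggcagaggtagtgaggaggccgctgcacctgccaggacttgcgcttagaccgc
Srebf2: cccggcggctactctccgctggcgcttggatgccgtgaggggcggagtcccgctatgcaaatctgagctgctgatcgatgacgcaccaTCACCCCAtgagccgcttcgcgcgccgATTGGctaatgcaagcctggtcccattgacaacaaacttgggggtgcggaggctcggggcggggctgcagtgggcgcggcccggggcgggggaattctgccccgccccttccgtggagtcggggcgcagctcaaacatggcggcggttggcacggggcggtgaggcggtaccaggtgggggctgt
Hmgcs1: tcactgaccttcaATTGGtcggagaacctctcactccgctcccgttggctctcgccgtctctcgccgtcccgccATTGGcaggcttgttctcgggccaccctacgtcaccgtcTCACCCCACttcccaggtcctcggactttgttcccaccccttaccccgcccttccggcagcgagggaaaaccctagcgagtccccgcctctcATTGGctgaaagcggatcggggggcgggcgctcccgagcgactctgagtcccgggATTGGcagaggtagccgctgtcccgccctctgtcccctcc

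Promoters were found for 22 of the 28 listed genes, Acat2 included, and both strands were searched. TCACNCCAC was found in 1 of the 22, Hmgcs1, and in 1.44% of all 27025 genes in the table. The shorter TCACNCCA, which lies within it, was added after the Srebf2 promoter had been read. It was found in Hmgcs1 (137 bases before the start), Msmo1 (177 bases before) and Srebf2 (162 bases before), and in 4.97% of all genes. CCAAT occurred in 19 of the 22 and in 41.1% of all genes. GGGCGG, the letters bound by Sp1, occurred in 19 of the 22 and in 38.2% of all genes, and the E-box CACGTG in 5 of the 22 and in 8.09%. These matches of letters are a description and say nothing of binding.

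Msmo1 and Srebf2 rose in high switching subclones, and 0 of the 27 genes fell. The other 25 did not pass limma's test at an adjusted p under 0.05, of which 3 above 0 and 3 below had an unadjusted p under 0.05. With Msmo1 and Srebf2, 8 of the 27 (29.6%) had such a p, against 22.9% of all genes. The share called was 7.41%, against 4.82% of all genes (2.04% higher and 2.78% lower) and 7.64% of the 8222 genes whose mean log2 intensity was 7 or more. All 27 genes had such a mean, so the share called lay near that of genes of like brightness. Of their 63 probe sets, 2 were higher and 0 lower, 3.17% against 3.59% of all probe sets. The median difference was -0.041 (log2, high minus low switching), with 13 genes above 0 and 14 below, against a median of 0.0077 over all genes. Whatever its sign, the median size of the difference was 0.24 for the 27 genes and 0.24 for genes with a mean of at least 7. The classes did not overlap for 10 genes with high switching above and for 10 with high switching below, 37.0% each. Among all genes these shares were 26.5% and 24.9%, and among genes with a mean of at least 7 they were 28.2% and 37.1%.

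**Figure D1:**
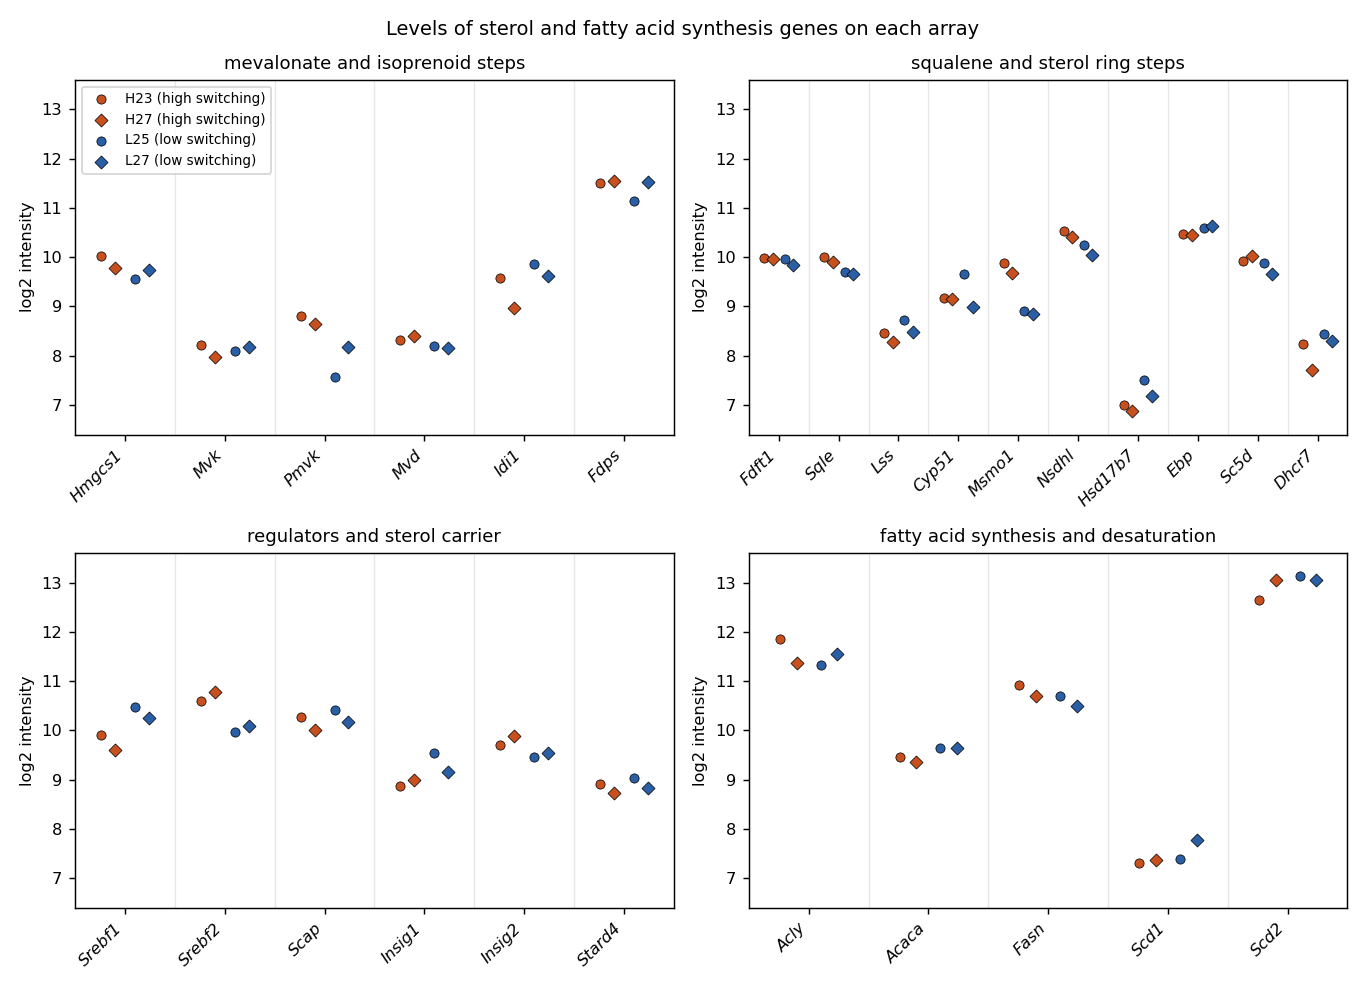
Log2 intensity (vertical axis) of the 27 genes on each array, in 4 panels by role, for the probe set with the highest mean. Orange symbols are high switching subclones (circle H23, diamond H27) and blue symbols low switching subclones (circle L25, diamond L27). The orange symbols of Msmo1 and Srebf2 lie above the blue ones, while those of Fdft1, Mvk and Fdps overlap with them.

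Markers listed for plasma cells and hybridomas were measured at high levels: all 9 lay above the median probe set, with log2 intensities between 8.43 and 14.49. Their summed intensity was 56664 in H23 and 61592 in H27, against 59995 in L25 and 64073 in L27, and 1 was higher (Cd79b) and 2 lower (Xbp1 and Tnfrsf17) in high switching subclones. Of 5 myeloid markers Itgam was lower, and their summed intensity was 303.2 in H23 and 318.5 in H27, against 459.1 in L25 and 456.8 in L27. That sum follows Itgam, whose log2 intensity was 6.55 in H23 and 6.97 in H27, against 8.14 in L25 and 8.14 in L27. Of the 5 differences, 3 lay above 0 and 2 below, so the myeloid list did not fall as a whole. Of 5 fibroblast markers Lum was higher, with a sum of 168.1 in H23 and 152.6 in H27, against 127.5 in L25 and 114.7 in L27. Lum itself had a log2 intensity of 5.77 in H23 and 5.28 in H27, against 4.38 in L25 and 4.26 in L27. Among the 5 fibroblast differences 3 lay above 0 (Lum 1.21, Col1a2 0.43 and Col3a1 0.017). The other 2 lay below (Col1a1 -0.025 and Pdgfra -0.037), so the fibroblast list did not rise as a whole. In limma's test 0 of 6 T cell, 0 of 3 erythroid, 0 of 4 adipocyte and 0 of 4 hepatocyte markers passed, with 1 T cell and 1 adipocyte marker at an unadjusted p under 0.05. The 4 adipocyte markers lay below the median probe set on every array. The part of these markers in the results was not tested, and in RNA of whole cultures fewer cells of a type and less RNA per cell cannot be told apart. The median intensity of the arrays was between 38.1 and 39.3, and having only 4 arrays limits how precise any value is.

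Of the 6 genes that lead to mevalonate and the isoprenoids, 0 passed limma's test and 1, Pmvk, had an unadjusted p under 0.05. Hmgcs1, which condenses acetyl-CoA units on the way to mevalonate, had a log2 intensity of 10.03 in H23 and 9.78 in H27, against 9.56 in L25 and 9.73 in L27. The high switching subclones lay above, with H27 only just above L27. The difference was 0.26 ± 0.13 (log2, SE; limma adjusted p = 0.382), and its other probe sets differed by between 0.073 and 0.31.

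Pmvk, phosphomevalonate kinase, had a log2 intensity of 8.80 in H23 and 8.64 in H27, against 7.56 in L25 and 8.17 in L27. The classes did not overlap, and L25 lay well below L27. The difference of 0.86 ± 0.21 (log2, SE; 95% interval 0.35 to 1.37) had a limma adjusted p of 0.0908. It passed without L27 (1.16, adjusted p = 0.048), and it was smaller without L25 (0.55, adjusted p = 0.233). The 20 measured genes on each side of it on chromosome 3 had a median difference of 0.28.

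Idi1, the isomerase of isopentenyl diphosphate, had a log2 intensity of 9.59 in H23 and 8.96 in H27, against 9.85 in L25 and 9.62 in L27. H27 was the lowest, and it differed from H23 by -0.63, more than the class difference of -0.46 ± 0.22 (log2, SE; limma adjusted p = 0.336). The differences of Mvk, mevalonate kinase, Mvd, the decarboxylase of the pathway, and Fdps, farnesyl diphosphate synthase, were -0.041, 0.18 and 0.19 (log2), with intervals that included 0.

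**Figure D2:**
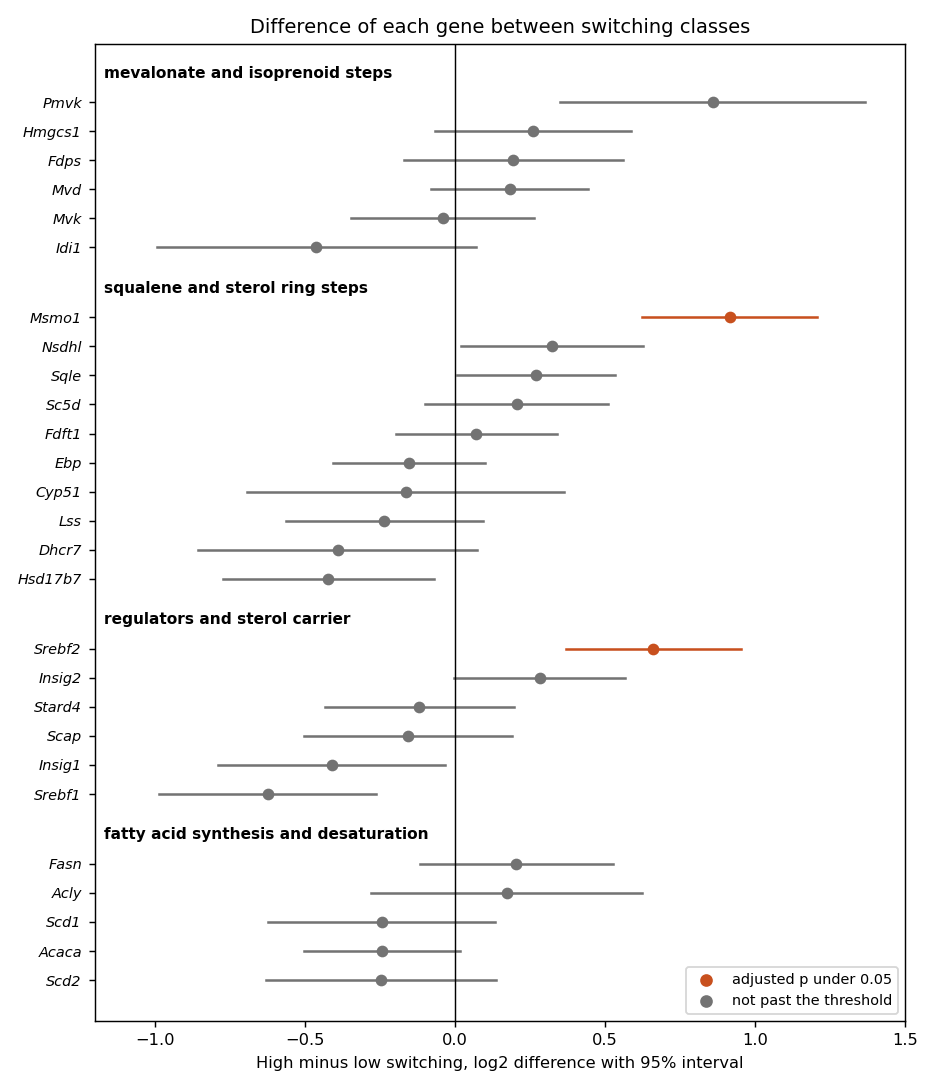
Difference of each gene between high and low switching subclones (horizontal axis, log2, high minus low) with its 95% interval from limma, by role. Orange marks Msmo1 (0.91) and Srebf2 (0.66), which passed an adjusted p under 0.05, and grey the other 25 genes, of which Pmvk (0.86) and Srebf1 (-0.62) lie farthest from 0.

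Of the 10 genes from squalene to cholesterol, Msmo1 rose and the other 9 did not pass, with 5 differences above 0 and 5 below in all. Msmo1 encodes methylsterol monooxygenase, which oxidizes methyl groups of the sterol ring for removal. Its log2 intensity was 9.89 in H23 and 9.68 in H27, against 8.90 in L25 and 8.84 in L27. Both high switching subclones lay above both low switching subclones, by more than the distance within either class. The difference was 0.91 ± 0.12 (log2, SE; 95% interval 0.62 to 1.21), a 1.89-fold higher level with a limma adjusted p of 0.0199. The call held without H27 (1.02, adjusted p = 0.0464) and ended without H23 (0.81, adjusted p = 0.0727), without L25 (0.95, adjusted p = 0.0984) or without L27 (0.88, adjusted p = 0.0884). Its neighbours on chromosome 8 had a median difference of 0.26, and with the neighbours subtracted Msmo1 still passed (0.65, adjusted p = 0.0428). A second Msmo1 probe set lay below the median probe set on every array and differed by -0.047 (limma adjusted p = 0.905).

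Nsdhl, a sterol dehydrogenase, and Hsd17b7, a ketoreductase, act with Msmo1 in taking methyl groups off the ring. Nsdhl differed by 0.32 ± 0.12 (log2, SE; limma adjusted p = 0.239) and did not pass. Hsd17b7 had a log2 intensity of 6.99 in H23 and 6.87 in H27, against 7.52 in L25 and 7.19 in L27. Its high switching values lay below, with a difference of -0.42 ± 0.14 (log2, SE; limma adjusted p = 0.19) that did not pass, and its other probe sets differed by between -0.088 and -0.023.

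Fdft1, squalene synthase, had a log2 intensity of 9.99 in H23 and 9.96 in H27, against 9.97 in L25 and 9.84 in L27. The classes overlapped, with a difference of 0.071 ± 0.11 (log2, SE; 95% interval -0.20 to 0.34). Sqle, squalene epoxidase and a control point of the pathway, had a log2 intensity of 9.99 in H23 and 9.90 in H27, against 9.70 in L25 and 9.66 in L27. Its classes did not overlap, and the difference of 0.27 ± 0.11 (log2, SE) had a limma adjusted p of 0.255. Lss, which closes the ring to give lanosterol, had a log2 intensity of 8.46 in H23 and 8.28 in H27, against 8.72 in L25 and 8.48 in L27. Its high switching values lay below by little, with a difference of -0.23 ± 0.13 (log2, SE; limma adjusted p = 0.438). The dimmer probe sets of Lss differed by 0.035 and -0.50 (limma adjusted p = 0.960 and 0.237).

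Cyp51, the lanosterol demethylase, had a log2 intensity of 9.17 in H23 and 9.14 in H27, against 9.65 in L25 and 8.99 in L27. The low switching subclones lay on either side of the high switching ones, and the difference was -0.16 ± 0.22 (log2, SE; limma adjusted p = 0.785). Dhcr7, a reductase of the last steps to cholesterol, had a log2 intensity of 8.24 in H23 and 7.70 in H27, against 8.43 in L25 and 8.29 in L27. H27 stood below the other arrays, and the difference of -0.39 ± 0.19 (log2, SE; limma adjusted p = 0.354) was smaller than the distance between H23 and H27. Ebp, a sterol isomerase, and Sc5d, a sterol desaturase, differed by -0.15 and 0.21 (log2), with intervals that included 0.

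Among the 5 regulators and the sterol carrier Stard4, Srebf2 rose and the other 5 did not pass. Srebf2 encodes the transcription factor that chiefly drives cholesterol synthesis. Its log2 intensity was 10.60 in H23 and 10.77 in H27, against 9.97 in L25 and 10.09 in L27. The classes did not overlap. The difference was 0.66 ± 0.12 (log2, SE; 95% interval 0.37 to 0.95), a 1.58-fold higher level with a limma adjusted p of 0.0442. The call ended when H23 (0.75, adjusted p = 0.0925), H27 (0.58, adjusted p = 0.147), L25 (0.60, adjusted p = 0.205) or L27 (0.72, adjusted p = 0.119) was left out, and with the chromosome neighbours subtracted (0.55, adjusted p = 0.0766). A second Srebf2 probe set differed by 0.48 ± 0.13 (log2, SE; limma adjusted p = 0.115) without overlap of the classes and did not pass.

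Srebf1 encodes the related factor that chiefly drives fatty acid synthesis. Its log2 intensity was 9.90 in H23 and 9.60 in H27, against 10.48 in L25 and 10.26 in L27. The high switching subclones both lay below, the other way from Srebf2. The difference of -0.62 ± 0.15 (log2, SE; 95% interval -0.99 to -0.26) did not pass limma's test (adjusted p = 0.0864), nor in any of 13 alternatives, which gave differences between -0.77 and -0.47. A test of Srebf2 against Srebf1 was not run.

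**Figure D3:**
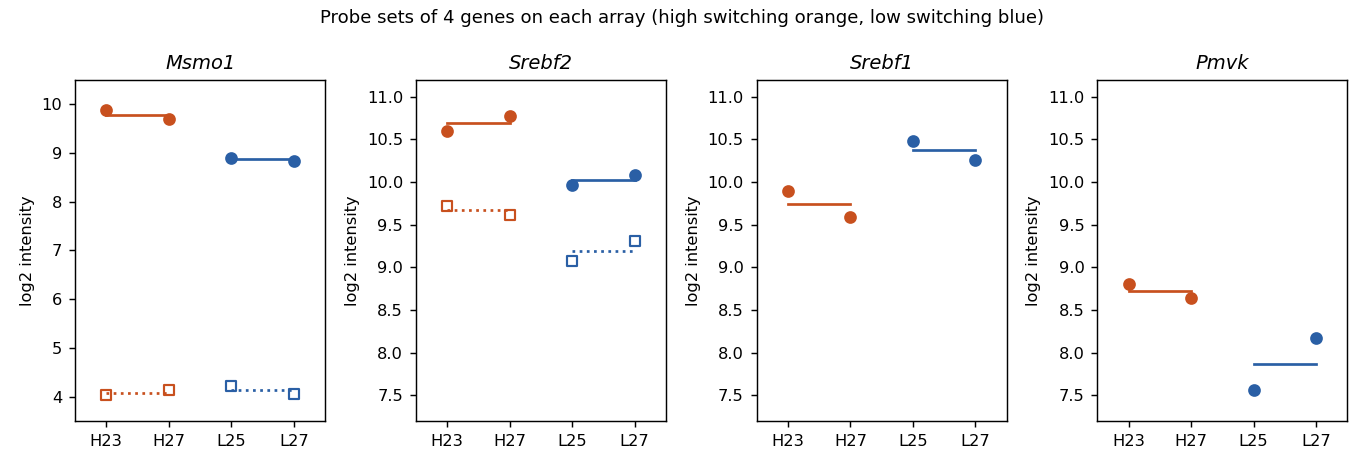
Log2 intensity (vertical axis) of every probe set of Msmo1, Srebf2, Srebf1 and Pmvk on each array (horizontal axis), high switching in orange and low switching in blue. Filled circles are the probe set with the highest mean, open squares the second probe set of Msmo1 and of Srebf2, and lines the class means. The filled circles of Msmo1, Srebf2 and Pmvk are higher in orange, those of Srebf1 are lower, and the dim Msmo1 probe set is level.

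Scap, the escort of the Srebf factors, had a log2 intensity of 10.26 in H23 and 10.02 in H27, against 10.41 in L25 and 10.18 in L27. The classes overlapped, with a difference of -0.16 ± 0.14 (log2, SE; limma adjusted p = 0.655). Insig1, a retention protein and itself a target of these factors, had a log2 intensity of 8.87 in H23 and 8.995 in H27, against 9.54 in L25 and 9.15 in L27. Its high switching values lay below, and the difference of -0.41 ± 0.16 (log2, SE) did not pass (limma adjusted p = 0.232). Insig2, its homologue, had a log2 intensity of 9.71 in H23 and 9.88 in H27, against 9.47 in L25 and 9.55 in L27. Its high switching values lay above, with a difference of 0.28 ± 0.12 (log2, SE; limma adjusted p = 0.271), and its other probe sets differed by 0.039 and 0.11. Stard4, a cytosolic sterol carrier, had a log2 intensity of 8.91 in H23 and 8.72 in H27, against 9.03 in L25 and 8.83 in L27. The classes overlapped, with a difference of -0.12 ± 0.13 (log2, SE; limma adjusted p = 0.724). Its other probe sets differed by -0.26 and -0.31 (limma adjusted p = 0.277 and 0.250) and did not pass.

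Of the 5 genes of fatty acid synthesis and desaturation, 0 passed limma's test and 0 had an unadjusted p under 0.05. Acly, which makes acetyl-CoA from citrate, had a log2 intensity of 11.86 in H23 and 11.37 in H27, against 11.33 in L25 and 11.56 in L27. The classes overlapped, with a difference of 0.17 ± 0.19 (log2, SE; 95% interval -0.28 to 0.62). Acaca, which makes malonyl-CoA, had a log2 intensity of 9.45 in H23 and 9.35 in H27, against 9.64 in L25 and 9.65 in L27. Its high switching values lay below, with a difference of -0.24 ± 0.11 (log2, SE; 95% interval -0.50 to 0.017). Fasn, fatty acid synthase, had a log2 intensity of 10.91 in H23 and 10.71 in H27, against 10.71 in L25 and 10.504 in L27. H27 and L25 were nearly level, and the difference was 0.20 ± 0.13 (log2, SE; 95% interval -0.12 to 0.53).

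Scd1 and Scd2 encode desaturases that make monounsaturated fatty acids. Scd1 had a log2 intensity of 7.31 in H23 and 7.36 in H27, against 7.38 in L25 and 7.78 in L27, a difference of -0.24 ± 0.15 (log2, SE; 95% interval -0.62 to 0.13). Scd2 had a log2 intensity of 12.65 in H23 and 13.05 in H27, against 13.14 in L25 and 13.05 in L27, a difference of -0.25 ± 0.16 (log2, SE; 95% interval -0.63 to 0.14). The high switching values lay below the low switching ones by little in both genes, and 1 array stood off from the other 3, L27 being high for Scd1 and H23 low for Scd2. Their neighbours on chromosome 19 had median differences of the other sign, 0.38 and 0.39.

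For 24 of the 25 genes that did not pass, the 95% interval of the log2 difference lay within 1 of 0, so within 2-fold. The exception was Pmvk, with an upper bound of 1.37. The SE was between 0.10 (Ebp) and 0.22 (Idi1).

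Subclones of the same class also differed. H27 was below H23 in 19 of 27 genes, and L27 was below L25 in 17 of 27. For the steps from squalene to cholesterol this held for 9 of 10 genes in each class, all but Sc5d in high switching and all but Ebp in low switching subclones. The median difference over these 10 genes was -0.11 (log2, H27 minus H23) and -0.18 (log2, L27 minus L25). Among all genes with a mean of at least 7, H27 was below H23 in 56.3% and L27 below L25 in 46.6%. With 1 array for each subclone these are descriptions. The hybridization controls had a mean log2 intensity of 10.79 in H23 and 11.23 in H27, against 11.32 in L25 and 10.72 in L27. For a fit with this level as a block, H27 and L25, above its median, were set apart from H23 and L27. The calls of Msmo1 (0.91, adjusted p = 0.0967) and Srebf2 (0.66, adjusted p = 0.132) then ended. Each block holds 1 array of each class, so the differences cannot change, and less is left to estimate the spread from. The fit thus does not show whether the control level bears on the calls.

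**Figure D4:**
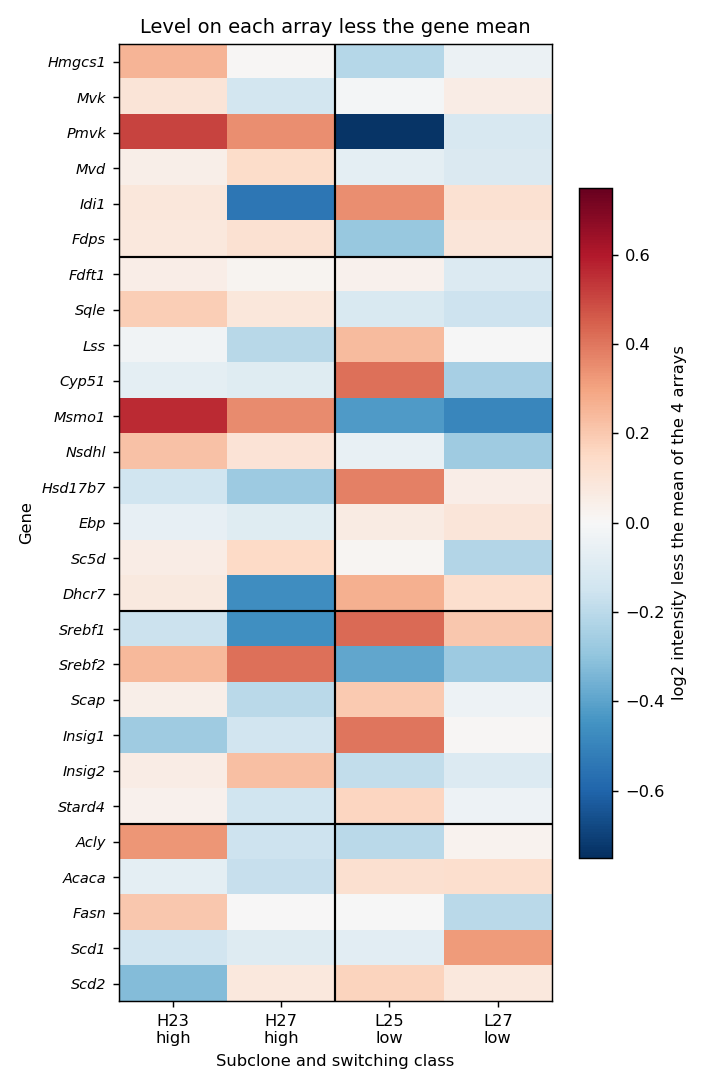
Log2 intensity of each gene on each array less the mean of its 4 arrays (colour, red above and blue below), with genes in rows by role and high switching columns H23 and H27 left of low switching columns L25 and L27. Msmo1 and Srebf2 are red in both high switching columns and blue in both low switching columns, and Srebf1 is the reverse.

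The median difference of the 20 genes on each side with a mean of at least 7 had the same sign as the gene itself for 19 of the 27. These medians ran between -0.41 (Idi1) and 0.39 (Scd2). Pearson's r between a gene's own difference and that of its neighbours was 0.47 over the 27 genes, a description, since all points share the same 4 arrays and some share neighbours. For 19 of the 27 the gene's own difference was larger in size than its neighbours' median.

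**Figure D5:**
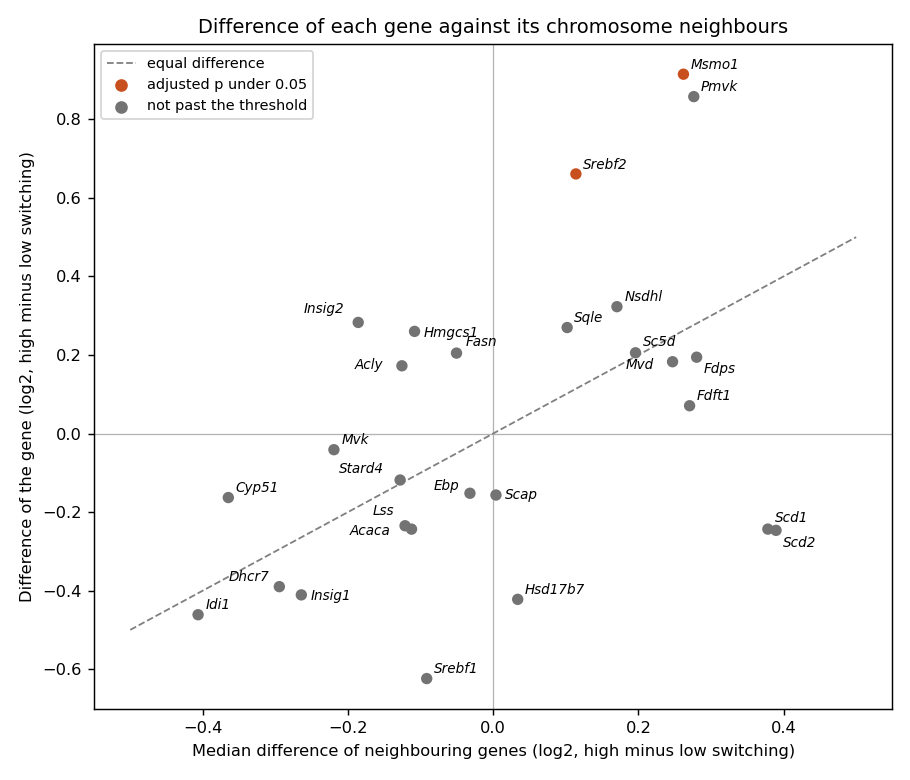
Difference of each gene between high and low switching subclones (vertical axis, log2) against the median difference of the 20 measured genes on each side of it (horizontal axis, log2). The dashed line marks equal values. Msmo1, Srebf2 and Pmvk lie well above it, Srebf1, Hsd17b7, Scd1 and Scd2 below it, and Idi1 near it at -0.46 against -0.41.

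Among 54 further genes of sterol supply, fatty acid synthesis and sterol efflux, Fdx1 and Fabp5 rose and 0 fell. Each gene was read at its probe set with the highest mean. In all 17 of the 54 (31.5%) had an unadjusted p under 0.05, against 22.9% of all genes. The share called was 3.7%, against 4.82% of all genes and 7.64% of genes with a mean log2 intensity of 7 or more. The median of the 54 mean intensities was 8.91 (log2). Fdx1, a mitochondrial ferredoxin that passes electrons to sterol hydroxylases, had a log2 intensity of 10.21 in H23 and 10.02 in H27, against 8.91 in L25 and 9.09 in L27. The classes lay far apart, with a difference of 1.12 ± 0.13 (log2, SE; limma adjusted p = 0.0148), a 2.17-fold higher level. The Fdx1 call ended without H23 and without L25, and held without H27 (1.21) and without L27 (1.204). Fabp5, a fatty acid-binding protein, had a log2 intensity of 11.81 in H23 and 11.77 in H27, against 11.02 in L25 and 11.06 in L27. Its difference was 0.75 ± 0.10 (log2, SE; limma adjusted p = 0.0235), and its second probe set also rose (0.86). Without H23, H27, L25 or L27 the Fabp5 call ended, as it did with the chromosome neighbours subtracted. Lipa did not pass at its probe set with the highest mean (0.54, limma adjusted p = 0.0626). Of its other probe sets, that with a difference of 0.83 passed (limma adjusted p = 0.0445) and that with 0.44 did not (limma adjusted p = 0.109).

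In the other direction the largest differences of the 54 were those of Ggps1, geranylgeranyl diphosphate synthase, and Npc1, the lysosomal cholesterol exporter. Ggps1 had a log2 intensity of 8.67 in H23 and 8.28 in H27, against 9.11 in L25 and 9.13 in L27. The classes did not overlap, and the difference of -0.65 ± 0.15 (log2, SE) did not pass (limma adjusted p = 0.0862). Of its 3 other probe sets, 2 passed, with differences of -1.06 and -0.87 (limma adjusted p = 0.0149 and 0.0261), and 1 did not (-0.56, limma adjusted p = 0.0861). Npc1 had a log2 intensity of 7.27 in H23 and 7.46 in H27, against 8.03 in L25 and 7.89 in L27. Its difference of -0.59 ± 0.12 (log2, SE) did not pass (limma adjusted p = 0.0636).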

How the data were processed

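Biotin-labelled RNA of 4 subclones was hybridized to Affymetrix arrays, 1 array each, per the labels. The authors deposited linear intensities, made with RMA per the submitters' processing notes, which give no version. Their genome build was not given in the sources used here. The deposited intensities were transformed to log2. Of 45101 probe sets, 64 controls were left out. A platform annotation of 2016 gave 34945 probe sets 1 symbol, 932 several and 9160 none, and only those with 1 symbol were named. The probe set with the highest mean stood for its gene. High minus low switching was fitted over 45037 probe sets with limma 3.58.1 in R 4.3.3 (two-sided moderated test), with Benjamini-Hochberg adjustment over all of them and a threshold of 0.05. Errors are limma's SE and intervals are at 95%. Chromosome neighbours and promoters came from RefSeq tables (GRCm38.p6). Members and gene lists were chosen with earlier results of these data known. Values on each array are given for members past the threshold, the 6 further ones with the largest differences and the main enzymes and regulators. Further lipid genes are named where any probe set passed or where they had 1 of the 2 largest differences in a direction. The fit was tested on simulated data. Alternatives changed the variance model, the filter on dim probe sets, the normalization, the probe sets kept, the minimum fold, the block, the neighbours and the arrays.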

Additional observations from a re-analysis of the deposited data

How the results depend on the processing

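In 15 alternatives, 0 member genes were called lower. The 2 higher member genes became 1 when probe sets with names ending in _x_at, _s_at or _a_at were dropped (Msmo1 is then not measured by its bright probe set), 1 with chromosome neighbours subtracted and 1 when the probe sets of a gene were averaged, where Msmo1 was 0.43 (adjusted p = 0.0596). They became 0 with a minimum fold of 1.5 and 0 with the hybridization control level as a block, and member probe sets gave the same counts of 1, 1, 0 and 0. All probe sets called, 674 higher and 944 lower, became 59 and 104 with the minimum fold and 58 and 94 with that block. The further genes, 2 higher and 0 lower, became 4 higher and 1 lower among probe sets whose mean was 6 or more on the log2 scale, 4 higher with quantile normalization repeated, 4 higher with cyclic loess, and 4 higher and 2 lower with averaged probe sets. They were 2 higher (Fdx1 and Fabp5) and 1 lower without the dropped probe sets. With neighbours subtracted they were 1 higher and 1 lower, and with the minimum fold or the block 0 higher. The 1 lower gene without the dropped probe sets is Ggps1, which another of its probe sets then stands for. The minimum fold is a stricter limit by construction. The block leaves every difference unchanged by construction, with less to estimate the spread from. Averaging joins the bright Msmo1 probe set (0.91) with the dim one (-0.047) by construction. Apart from these changes of probe set, the cause was not tested for the other settings.

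With 1 array left out, the lone array of a class is assumed to vary like the others. All probe sets called were then 112 to 253 higher and 196 to 329 lower, member probe sets 0 to 1 higher, member genes 0 to 1 higher and further genes 0 to 1 higher. The median of the member genes was -0.071 without H23 and 0.077 without H27, so its sign is not settled. No paired analysis was possible because the labels give no replicate numbers that pair the subclones. Signal over background limits the 8 member probe sets below the median probe set on every array.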
